A study of Xenopus tropicalis with 18 samples.

Results

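The last 37 rows of each count table are a stretch of gene rows that stands at the foot of all 18 files and was read by position, counted upwards from the last line (row 1) to the 37th line from the end (row 37). They are 37 of 19921 gene rows in the tables of replicates 1 and 2 and 37 of 21458 in those of replicate 3. In the first kind of table they carry the identifiers ENSXETG00000034356 (row 37) to ENSXETG00000034392 (row 1), and in the second ENSXETG00000021423 to ENSXETG00000021459, so that the 2 sets share 0 identifiers. Over the whole replicate 3 tables the identifiers run from number 2 to 21459 with a step of 1 at all 21457 steps, against 13429 of 19920 steps in the other tables, so it is uncertain whether they are the genes' own identifiers. The RefSeq gene table used here held 0 identifiers of any row of either kind of table, members or not, and the files give no names, so the rows are described by number, and no function is given to any of them.

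The libraries measure RNA of 2 tissues of Xenopus tropicalis, a clawed frog, during metamorphosis. The coccyx and the hypochord are the dorsal and the ventral rudiment that join into the urostyle, the bony rod behind the sacrum of frogs. The hypochord lies below the notochord and turns into cartilage and bone as thyroid hormone drives metamorphosis, while the coccyx is made from vertebral elements around the neural tube. All animals were of WT genotype; the groups were coccyx and hypochord at stages 56, 58, 61 and 65, with 2 libraries per tissue at stage 56, 1 at stage 58 and 3 each at stages 61 and 65. The tissue was cut from frozen sections with a laser, so a library can also hold RNA of neighbouring cells. The labels do not tie replicates to animals, so the spread behind every p-value is that of these samples alone and may be technical. No gene names were paired with identifiers, so the tissue labels could not be checked against marker genes.

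Within the 37 rows the tables largely matched by position, and in the next 37 rows they did not. No comparison is given for rows further from the end. Across the 37 rows the mean log2(CPM + 1), with CPM as a row's counts scaled to a file total of 1e+06, had a Spearman's rho of 0.967 between replicates 1 and 2 and replicate 3. It was -0.37 and -0.40 across 36 rows when replicate 3 was shifted by 1 row up or down, and 0.019 across the next 37 rows, 38 to 74 from the end. Across the 15 rows with counts in all 18 libraries rho was 0.829, and across the last 38 rows it was 0.938. These are descriptions across rows, which are not independent, and many rows share a value of 0. Row 38, the first outside, was empty in all 12 libraries of replicates 1 and 2 but held 194 to 651 counts in the 6 of replicate 3. Row 40 had 0 counts in the first 12 and 86357 to 221061 in the other 6. Inside the stretch, 2 of 37 rows had counts in one kind of table and none in the other. All other rows agreed between the tables in having or lacking counts.

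**Figure D1:**
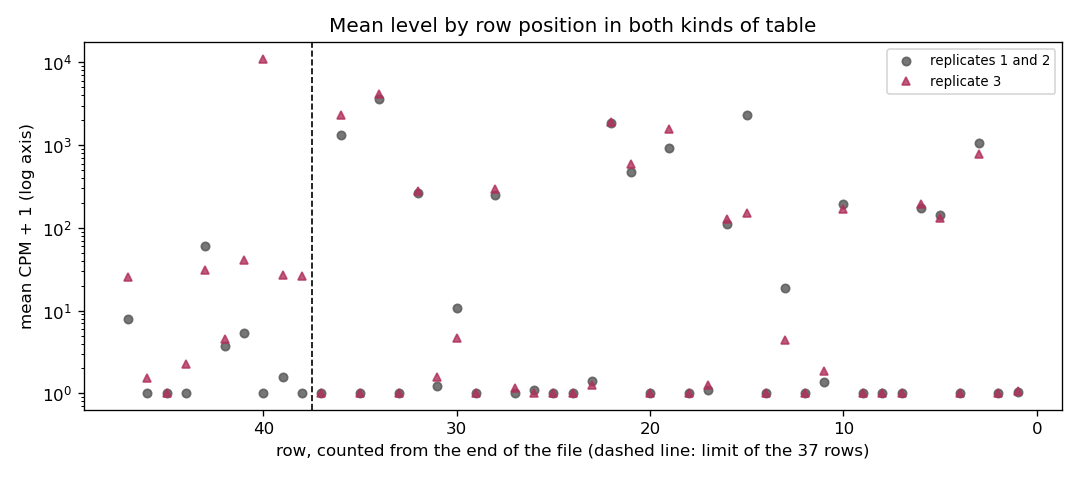
Mean CPM + 1 (log axis) of each row by its position from the end of the file, for the 12 libraries of replicates 1 and 2 (circles) and the 6 of replicate 3 (triangles). To the right of the dashed line, where the 37 rows stand, circles and triangles mostly lie close together, with row 15 as the widest gap; to its left, row 40 has only replicate 3 counts.

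File totals lay between 1918822 and 7271829 counts for replicates 1 and 2, and between 10418992 and 17125833 for replicate 3. Replicate 1 of stage 56 hypochord and replicate 2 of stage 58 hypochord stood apart, with counts in 7376 and 7508 genes against 11003 to 14645 in the other libraries. Tissue results are therefore also given for stages 61 and 65 alone; comparisons with stages 56 or 58 in replicates 1 and 2 cannot be made without these libraries in hypochord. The tables of replicate 3 have another number of rows and other identifiers, so levels compared across both kinds of table were set across tables counted separately.

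Of the 37 rows, 15 had counts in all 18 libraries, 14 had 0 counts in every library, and 8 had counts in some. The 14 empty rows allow at most 0.175 to 1.56 CPM, the value of 3 counts in the deepest and the shallowest library, and this limit covers counting error only. In replicates 1 and 2, 16 of the 37 rows (43.2%) were empty, against 20.3% of all rows of those tables, and in replicate 3 it was 14 (37.8%) against 21.9%. The 8 sparse rows held 231 counts in all, with no more than 22 in any library. Row 11 was the fullest of them, with 86 counts in 12 libraries. It had counts in every library of replicate 3 (0.175 to 1.48 CPM), so it is counted with the 15 rows among the 16 member rows of replicate 3. Row 1 had 8 counts in 5 libraries, and row 4 had a single count, in replicate 3 of stage 56 hypochord. Nearly all counts thus came from 15 rows.

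**Figure D2:**
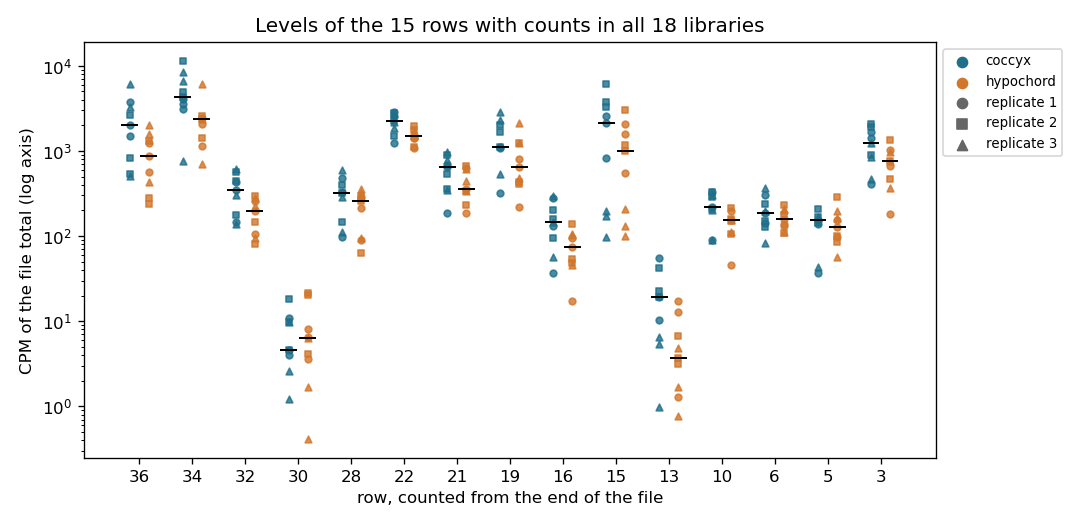
CPM of the file total (log axis) of the 15 rows with counts in all 18 libraries, each point a library (circles replicate 1, squares replicate 2, triangles replicate 3) and each black bar the median of 9 libraries of a tissue. The rows span several orders of magnitude, from row 30 and row 13 at the bottom to row 34 at the top, and row 15 splits into replicate 3 at or below 209 CPM and the other replicates at or above 544 CPM.

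The 15 rows differed widely in how many counts they took. Gene lengths were not used here, so levels of different rows compare counts and not RNA molecules. Row 34 had the highest mean, 3807 CPM. Row 22 followed with 1862 CPM, row 36 with 1655, row 15 with 1608, row 19 with 1142 and row 3 with 971 CPM (n = 18). The mean of row 15 was 2336 CPM in replicates 1 and 2 and 151 CPM in replicate 3, where it was not among the highest. The other 9 filled rows had means from 7.67 CPM in row 30 to 512 CPM in row 21. Rows 34, 22, 36 and 15 together took 58.7% to 81.8% of the counts in the 37 rows, with a median of 69.2%. Row 34 ranked from 8th to 200th among all genes of a library, and its median rank was 55. From 0 to 6 of the 37 rows stood among the 100 most abundant genes of a library.

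The 37 rows took a larger share of all counts in coccyx than in hypochord in each of 9 pairs of libraries that share stage and replicate number. The share was 0.511% to 2.64% in coccyx, with a median of 1.83% and a mean of 1.66 ± 0.691 (SD, n = 9). In hypochord it was 0.442% to 1.45%, with a median of 0.940% and a mean of 0.885 ± 0.359 (SD, n = 9). The ranges of the tissues overlapped, and the order held within pairs. The ratio of coccyx to hypochord ran from 1.10 in replicate 3 of stage 56 to 3.30 at stage 58, with a median of 1.83, and the mean log2 ratio was 0.87 ± 0.49 (SD, n = 9). At stages 61 and 65 alone it was 0.85, with coccyx above hypochord in 6 of 6 pairs. Exact 95% binomial intervals of single shares reached at most 0.0163 percentage points to either side and cover counting error only. No p is given for this sum, because the rows were chosen with results of these data known. In bulk tissue a smaller share of a cell type and less RNA per cell cannot be told apart.

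By stage, both tissues had their lowest shares at stage 56. In coccyx, stage 56 had 0.810% in replicate 1 and 0.511% in replicate 3, and the single stage 58 library had 2.64%. Coccyx at stage 61 had 1.83%, 1.32% and 2.32% in replicates 1, 2 and 3, and at stage 65 it had 1.54%, 2.06% and 1.94%. Stage 56 thus lay below every later coccyx library, while stages 61 and 65 overlapped. In hypochord, the stage 56 libraries had 0.442% and 0.466%, and the stage 58 library had 0.799%. Stage 61 hypochord had 0.940%, 0.570% and 0.959%, and stage 65 hypochord had 0.994%, 1.34% and 1.45%. The hypochord libraries of stages 56, 61 and 65 therefore fell into this order without overlap, and the stage 58 value lay within the range of stage 61.

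**Figure D3:**
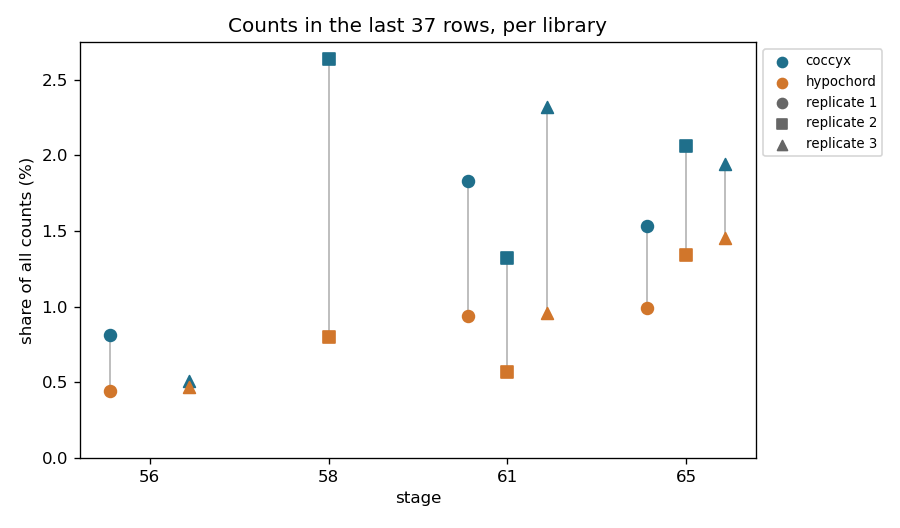
Share of all counts of a library (in percent) that fell in the last 37 rows, by stage, with coccyx in blue, hypochord in orange, the marker showing the replicate and a grey line joining the tissues of one stage and replicate. The coccyx point lies above its hypochord partner in 9 of 9 pairs, by a wide margin at stage 58 (2.64% against 0.799%) and a narrow one in replicate 3 of stage 56 (0.511% against 0.466%).

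Row by row, the median pair was higher in coccyx for 14 of the 15 filled rows. In 8 of them coccyx was higher in all 9 pairs. The background for this is the rows with counts in every library of a table. In replicates 1 and 2, coccyx was higher in all 6 pairs for 11 of 15 member rows, against 11.2% of 5625 such rows in the whole table, and the median log2 ratio was 0.63 in the members and 0.21 over all. In replicate 3, coccyx was higher in all 3 pairs for 10 of 16 member rows, against 17% of 8607 rows, with medians of 0.36 and 0.01. Hypochord was higher in every pair for 0 member rows in either kind of table, against 1.94% and 14.6% of all rows. At stages 61 and 65 alone, the median pair was higher in coccyx for 15 of the 15 filled rows and all 6 pairs were for 10. By table, coccyx was then higher in all 4 pairs of replicates 1 and 2 for 13 of 15 member rows, against 21.1% of all rows, and in both pairs of replicate 3 for 11 of 16, against 31.5%. On the scale of the 37-row total in place of the file total, the median pair was higher in coccyx for 4 of 15 rows. That scale takes out the coccyx excess of the sum, so it compares rows with their sum and cannot check that excess.

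The widest tissue ratios were those of rows 13, 36 and 34. Row 13 had 0.993 to 54.9 CPM in coccyx (median 19.1, n = 9) and 0.765 to 17.5 CPM in hypochord (median 3.71, n = 9), on counts as low as 6 in a library. The tissues overlapped, but coccyx was above its partner in 9 of 9 pairs, with a median log2 ratio of 1.96, which was 2.35 in the 6 pairs of replicates 1 and 2 and 0.38 in the 3 of replicate 3. Row 36 had 504 to 6188 CPM in coccyx (median 1993) and 240 to 2039 CPM in hypochord (median 884). Its log2 ratio ran from 0.22 to 1.98 over the 9 pairs, with a median of 1.18. Row 34 had 766 to 11301 CPM in coccyx (median 4343) and 693 to 6123 CPM in hypochord (median 2353). Its log2 ratio was 0.14 to 2.26 (median 0.98), again with coccyx above hypochord in 9 of 9 pairs. At stages 61 and 65 alone the medians of rows 13, 36 and 34 were 1.84, 1.36 and 0.95, with 6 of 6 pairs higher in coccyx in each.

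Other rows had smaller or less regular tissue ratios. Row 22 had 1228 to 2837 CPM in coccyx and 1076 to 1990 CPM in hypochord, and row 19 had 318 to 2836 and 221 to 2107 CPM. Row 3 had 406 to 2047 CPM in coccyx and 180 to 1356 CPM in hypochord. Coccyx was above hypochord in 9 of 9 pairs in each of these 3 rows, with median log2 ratios of 0.57, 0.52 and 0.71. Row 15 had a median log2 ratio of 0.43, with a range of -0.09 to 2.62. Its coccyx value was higher in 7 of 9 pairs, 6 of 6 in replicates 1 and 2 and 1 of 3 in replicate 3. Row 5 was the exception among the 15 in the median over all 9 pairs, a log2 ratio of -0.04, with coccyx higher in 4 of 9. Its levels were 36.7 to 211 CPM in coccyx and 56.1 to 291 CPM in hypochord. Rows 6 and 30 came next, with coccyx higher in 6 of 9 pairs each and median log2 ratios of 0.03 and 0.16. In replicates 1 and 2 alone the medians of rows 5 and 30 were 0.04 and -0.0058. Stages 61 and 65 alone gave medians of 0.74 in row 22, 0.60 in row 19 and 0.65 in row 3, with 6 of 6 pairs higher in coccyx, and of 0.0061 in row 5, with 3 of 6.

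**Figure D4:**
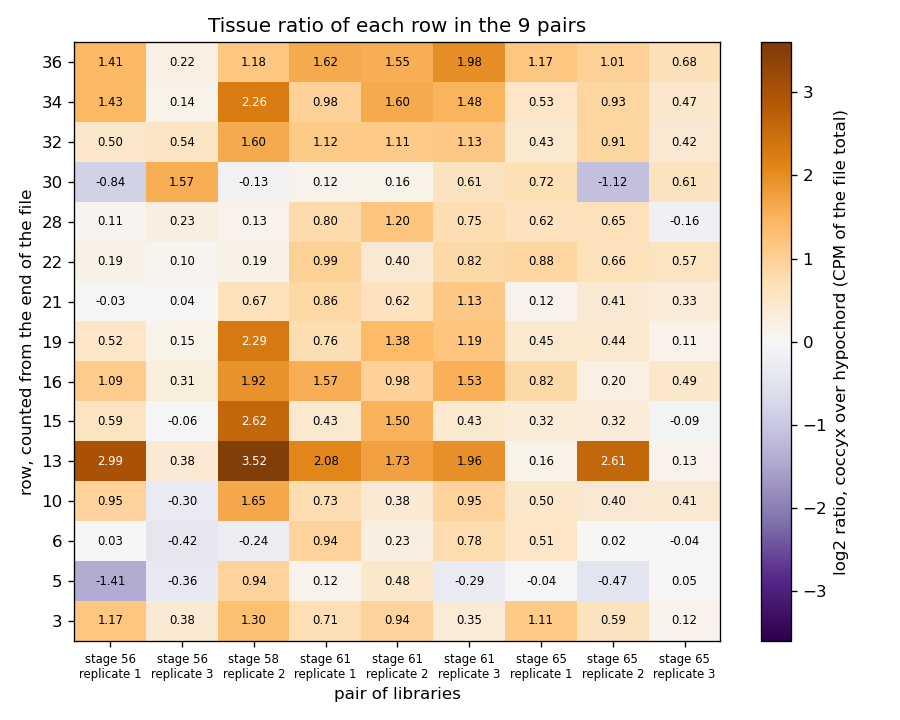
Log2 ratio of coccyx over hypochord (CPM of the file total) of the 15 filled rows in each of the 9 pairs of one stage and replicate; dark orange cells have more in coccyx and purple cells more in hypochord. Rows 36, 34, 32, 22, 19, 16, 13 and 3 are above 0 in every column, row 5 is below 0 in 5 of 9, and the pair of stage 58 holds several of the widest ratios.

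None of these rows passed the test of the tissue difference over whole tables. In replicates 1 and 2, edgeR's quasi-likelihood test with stage as a term called 0 of 15 member rows at an adjusted p under 0.05, against 3.45% of 9461 genes tested. At an unadjusted p under 0.05 it held 7 of the 15 rows, 7 higher in coccyx, against 10.3% of all genes higher in coccyx, and DESeq2 called 4, rows 36, 34, 13 and 3, against 8.75%. In this fit row 34 had a log2 fold change of 1.04 ± 0.30 (SE, edgeR adjusted p = 0.0947) and row 36 of 1.09 ± 0.35 (SE, edgeR adjusted p = 0.143). Row 13 had 1.71 ± 0.63 (SE, edgeR adjusted p = 0.216), or 2.37, past the threshold, without replicate 1 of stage 65 hypochord, when 4.21% of all genes were called. In replicate 3 it had 0.68 ± 1.53 (SE, edgeR adjusted p = 0.946). The log2 fold change of row 3 was 0.71 ± 0.25, that of row 19 was 0.72 ± 0.30 and that of row 22 was 0.29 ± 0.27 (SE; edgeR adjusted p = 0.186, 0.286 and 0.699). Row 5 had -0.30 ± 0.32 (SE, edgeR adjusted p = 0.732). The lowest value was that of row 30, -0.49 ± 0.58 (SE, edgeR adjusted p = 0.761). In this fit 12 of the 15 rows had a log2 fold change above 0. The median over the 15 rows was 0.70, and over all genes tested it was 0.38.

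The scaling of the libraries moved these medians. With total counts in place of edgeR's TMM factors, the median over all genes was 0.60 and that of the 15 rows 0.94. Total counts without the 37 rows put 1 of 15 rows, row 34, past the threshold (4% of all genes), and a block for each stage and replicate number, which rests on shared numbers alone, put 1, row 36, past it (2.87%). Without a filter on low counts, 0 of 21 member rows were called (6.39%), and the median was 0.72 over all genes and 0.65 over the members. With stages 61 and 65 alone, 0 of 15 member rows were called (3.03%), and the medians were 0.57 in the members and 0.01 over all genes.

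The tissue test in replicate 3 called 0 of 16 member rows, and 0% of 11485 genes in all. At an unadjusted p under 0.05 there were 0 member rows and 780 genes (6.79%), and DESeq2 called 0 member rows and 722 genes (6.29%). Only 2 residual degrees of freedom were left. For these libraries the log2 fold change was 0.82 ± 0.38 in row 36 and 0.56 ± 0.34 in row 34 (SE; edgeR adjusted p = 0.785 and 0.851), in the same direction as in replicates 1 and 2. Row 5 had -0.34 ± 0.32 (SE, edgeR adjusted p = 0.873). Row 15 had -0.05 ± 0.29 (SE, edgeR adjusted p = 0.981), or 0.092 with total counts, against 0.73 ± 0.36 (SE, edgeR adjusted p = 0.408) in replicates 1 and 2.

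The tissue difference was next compared between stages. For replicates 1 and 2 the difference at stages 61 and 65 was set against that at stages 56 and 58 by an interaction term. Over the whole table edgeR called 16.4% of 9461 genes, of which 1506 (15.9%) had a smaller coccyx excess at the later stages. Of the member rows 0 of 15 were called, 0 had an unadjusted p under 0.05, against 28.6% of all genes, and DESeq2 called 0, against 28%. The median interaction was 0.12 over the 15 rows and -1.17 over all genes (log2). With total counts the medians were -0.14 and -1.46. The early hypochord libraries in this contrast are those that detected few genes.

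Along the stages, the rows with counts in every library of a table were ordered by CPM, with 1 library per stage and tissue in replicate 3, and 1 library at stage 56 and 2 at stages 61 and 65 in replicates 1 and 2. In replicate 3, coccyx had more at stage 61 than at stage 56 in 16 of 16 member rows (61.8% of all such rows) and hypochord in 15 of 16 (49.9%). In replicates 1 and 2, coccyx had more at stage 61 without overlap in 12 of 15 (19.7%) and hypochord in 10 of 15 (32.9%). Stage 65 was above stage 56 in 15 of 15 rows of coccyx (43.8%) and 13 of 15 of hypochord (46.1%) in replicates 1 and 2, and in 16 of 16 (63.9%) and 14 of 16 (61.6%) in replicate 3. The step from stage 61 to stage 65 was unlike these in coccyx, where it was upward without overlap in 3 of 15 rows (43.4%) and in 4 of 16 (51.5%). In hypochord it was upward in 7 of 15 (28%) and 7 of 16 (60.2%). The members' share thus stayed above that of all rows in hypochord of replicates 1 and 2, and lay below it in replicate 3.

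Stage 61 was then tested against stage 56 in replicate 3. There each stage is 1 library per tissue with a shared replicate number, so stage cannot be told apart from that pair of samples. The spread behind these standard errors and p-values is how the tissue difference varied between stages, not how replicates of a stage varied. The edgeR test over both tissues called 0 of 16 member rows and 0% of 11485 genes. At an unadjusted p under 0.05 it held 10 member rows, all higher at stage 61, against 9.22% of all genes in that direction, and DESeq2 called 7 (rows 36, 34, 32, 28, 19, 16 and 5), against 5.98%. The median log2 fold change was 1.72 over the members and 0.09 over all genes tested. Leaving out 1 library gave 4 called rows of 17 tested without stage 65 coccyx, against 4.47% of all genes, 3 of 17 without stage 65 hypochord, against 3.96%, and 1 of 16 without stage 56 hypochord, against 3.48%. Each of these fits left a stage with 1 library and fewer than the 2 residual degrees of freedom of the full fit. Their counts are therefore uncertain. Without a filter on low counts 3 of 23 were called, rows 36, 34 and 28, against 2.34%.

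The rows did not move alike in this step. Row 36 had 504 CPM in coccyx and 431 CPM in hypochord at stage 56, and 6188 and 1570 CPM at stage 61. Its log2 fold change was 2.65 ± 0.49 (SE, edgeR adjusted p = 0.0889). Row 34 went from 766 and 693 CPM to 6683 and 2390 CPM, a log2 fold change of 2.35 ± 0.43 (SE, edgeR adjusted p = 0.0889). Both rows had their lowest replicate 3 values of each tissue at stage 56. Row 22 had 1864 and 1735 CPM at stage 56 and 2715 and 1534 CPM at stage 61, so that coccyx and hypochord went opposite ways, and its log2 fold change was 0.07 ± 0.37 (SE, edgeR adjusted p = 0.955). Row 15 had 0.50 ± 0.36 (SE, edgeR adjusted p = 0.543).

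For replicates 1 and 2, stage 61 was set against the mean of stages 56 and 58. Here edgeR called 0 of 15 member rows, against 0.0423% of 9461 genes. At an unadjusted p under 0.05 it held 5 rows, all higher at stage 61, against 5.74% of all genes in that direction, and DESeq2 called 3 (rows 16, 10 and 3), against 1.67%. The median log2 fold change was 0.73 in the members and 0.36 over all genes, or 0.46 and 0.14 with total counts. Row 36 had 1.24 ± 0.43 (SE, edgeR adjusted p = 0.461). Row 34 had 0.03 ± 0.36 (SE, edgeR adjusted p = 0.982), or -0.24 with total counts; its stage 58 coccyx level, 11301 CPM, was the highest of its 18 values. Without that stage 58 coccyx library, 2 of 15 rows were called, rows 16 and 10, against 14.5% of all genes, a share near that of the members.

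Between stages 61 and 65 the member rows did not share a direction in replicates 1 and 2. The test called 0 of 15 rows (0.074% of all genes, edgeR), 0 had an unadjusted p under 0.05 (4.03%), and DESeq2 called 0 (1.46%). The median was -0.03 in the members and 0.01 over all genes, or 0.32 and 0.48 with total counts. For replicate 3, in the test over both tissues, 13 of 16 member rows had a log2 fold change below 0, with a median of -0.56 against 0.16 over all genes. There too each stage is 1 pair of libraries, so stage and pair cannot be told apart. None of the 16 was called by edgeR (0% of all genes) or DESeq2 (1.1%), and 1 row, row 32, had an unadjusted p under 0.05, against 5.39% of all genes (-0.92 ± 0.37, SE, edgeR adjusted p = 0.879). Row 34 had 0.58 ± 0.41 (SE, edgeR adjusted p = 0.879).

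The make-up of the 37-row total varied between libraries. Row 34 took 14.9% to 43.9% of it in the 18 libraries. In replicate 3 of stage 56 it took its lowest shares in both tissues, and in replicate 3 of stage 65 it took 43.9% and 42.1%. Row 22 took 36.5% and 37.2% in the same stage 56 pair, and 11.4% and 10.3% in the stage 65 pair. Hypochord of replicates 1 and 2 gave it 24.4% at stage 56 and 24.9% at stage 58, against 13.0% to 19.6% later. Coccyx did not show that order, with 15.2% at stage 56, 8.62% at stage 58 and 11.2% to 17.0% later.

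The tissues of a replicate 3 pair were close in make-up at stages 56 and 65, and further apart at stage 61. Make-up was compared by the percentage points that the row shares would have to move between rows to match. This difference was 3.20, 5.76 and 14.5 in the replicate 3 pairs of stages 56, 65 and 61. Between stages of one tissue in replicate 3 it was 15.4 to 37.1 (6 comparisons). The nearest library in make-up was the other tissue of the same stage and replicate for 6 of 6 libraries of replicate 3. This held for 2 of 12 libraries of replicates 1 and 2. There the differences were 8.52 to 26.8 percentage points within pairs and 9.45 to 33.8 between stages of one tissue (26 comparisons). Between replicates of one tissue and stage they were 4.32 to 26.5 (4 comparisons), which overlapped the range within pairs. Replicate 3 has no second library of any tissue and stage, so the counts of nearest libraries are not comparable between the kinds of table.

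**Figure D5:**
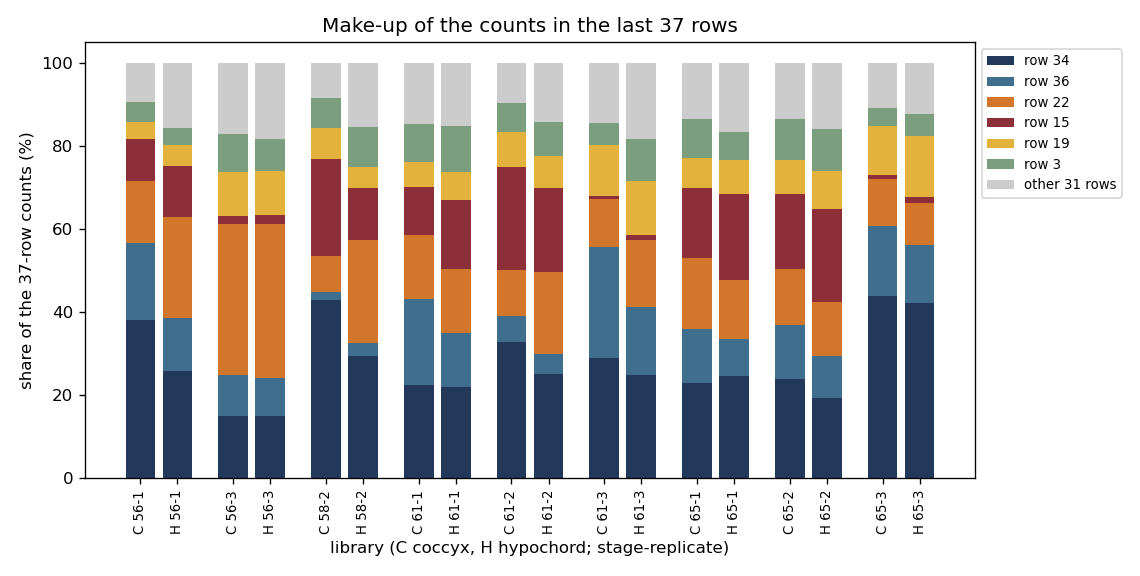
Share (in percent) of the counts in the 37 rows taken by the 6 most abundant rows and by the other 31 together, in each library, with the tissues of one stage and replicate side by side. Row 15 (dark red) takes 10.1% to 24.9% in replicates 1 and 2 and 0.753% to 2.15% in replicate 3, and row 22 (orange) is widest in the stage 56 pair of replicate 3.

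Row 15 was the row whose levels differed most between the kinds of table. It had 544 to 6133 CPM in the 12 libraries of replicates 1 and 2, a mean of 2336 ± 1573 (SD, n = 12). In replicate 3 it had 96.3 to 209 CPM, a mean of 151 ± 49.0 (SD, n = 6), without overlap. The replicate 3 mean was 0.0646 times that of the other replicates, while over the 15 filled rows the median of this ratio was 1.05 and the highest was 1.77, in row 36. Rows 13 and 30 were next lowest, at 0.189 and 0.381 times. Within replicate 3 its counts were 1650 and 1702 at stage 56, 1951 and 1930 at stage 61, and 2043 and 2217 at stage 65, in coccyx and hypochord. The part of the separate row lists in this gap was not tested.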

How the data were processed

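The deposited tables give raw counts, whole numbers of reads per gene, for 1 library each, with no sign of normalization in the values. FastQC, cutadapt 1.8.1 and HTSeq 0.13.5 are named per the submitters' processing notes; for aligner, genome build, annotation, strand and counting rules nothing was given in the sources used here, so the count of a row that overlaps another, or has a near-identical copy, is uncertain. Per the labels' protocols, complementary DNA was amplified by PCR, and no molecular identifiers are named, so intervals and floors (3 counts) cover counting error only.

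The members and lists were chosen with earlier results of these data known. Replicate 3 could not be joined to the other tables by identifier, so each kind of table was fitted whole with edgeR 4.0.16 in R 4.3.3 (TMM, filterByExpr by tissue, robust quasi-likelihood, stage and tissue as terms, Benjamini-Hochberg over all genes tested, threshold 0.05), with 7 and 2 residual degrees of freedom; 15 and 16 member rows passed the filter on low counts. The procedure was tested on simulated data, but the outcome is not given here. No conclusion on its performance in these libraries is drawn from that. DESeq2 1.42.0, other scalings, filters, blocks and left-out libraries were alternatives; the use of stages 61 and 65 alone and the replicate number as a term were added after seeing the data. The interaction came from a separate fit of replicates 1 and 2 with an interaction term added, which left 6 residual degrees of freedom. Standard errors are approximate. CPM in the text are of the file total.

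Rows named were the 6 with the highest and the 2 with the lowest mean above 0, up to 3 in each direction by median pair ratio, and called rows; others named were chosen after their values were seen. The planned marker and gene lists were not run, because no identifier was paired with a name.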

Additional observations from a re-analysis of the deposited data

Results flagged for a closer look

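In hypochord, row 34 had 6123 CPM in replicate 3 of stage 65, while the other 8 hypochord libraries had 693 to 2602 CPM. The gap to the next library was 0.648 of the whole range of the 9 libraries. The coccyx library of the same stage and replicate had 8506 CPM, which did not stand apart among the coccyx libraries. This was the 1 value that stood apart in this way among 18 groups of libraries looked at. Chance gives about 1 in 20 for like libraries, but each group mixes stages and both kinds of table, so that rate may not apply.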

How the results depend on the processing

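The share of counts in the 37 rows kept its direction under 7 of 7 alternatives (mean log2 ratio 0.71 to 1.003). A choice of pairs, such as leaving out a replicate, could not reverse it, because coccyx was higher in all 9 pairs. The number of rows with the median pair higher in coccyx was 14 of 15, 15 at stages 61 and 65 alone, and 13 or 14 without a replicate. With replicate 3 shifted by 1 row it was 3 of 4 and 3 of 3, which leaves few rows filled. As shares of the 37-row total it was 4 of 15, but that scale takes out the coccyx excess of the sum and cannot check it. The count of called member rows stayed at 0 in replicate 3 between tissues, between stages 61 and 65 in both kinds of table, and for the interaction, under every alternative run. Elsewhere it moved from 0. For the tissues in replicates 1 and 2, 1 of 15 rows was called with total counts without the 37 rows (4% of all genes). DESeq2 called 4 (8.75% of all genes, higher in coccyx), and the fit with the replicate block called 1 (2.87%). Without single libraries the count was 0 to 1, the 1 when 4.21% of all genes were called. For stage 61 over 56 and 58, DESeq2 called 3 (1.67% of all genes, higher at stage 61). Without single libraries the count was 0 to 2, the 2 when 14.5% of all genes were called, a share near that of the members. For stage 61 over 56 in replicate 3, DESeq2 called 7 (5.98% of all genes, higher at stage 61). Without a filter on low counts 3 of 23 were called there (2.34% of all genes), and at most 4 of 17 without a single library (4.47%). The causes were not tested. Log2 values that changed sign lay near 0. Row 15 between tissues in replicate 3 had 0.092 with total counts, 0.10 with total counts without the 37 rows, 0.049 with the strict filter and -0.093 to 0.024 without single libraries, and row 3 had -0.0024 to 0.35 without single libraries. Row 34 for stage 61 over 56 and 58 had -0.24 with either total count and -0.16 to 0.27 without single libraries, and row 22 for stage 61 over 56 in replicate 3 had -0.064 with DESeq2 and -0.27 to 0.25 without single libraries.

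Counts of called genes over whole tables moved widely: from 326 to between 54 and 1015 for the tissues in replicates 1 and 2, from 0 to as many as 722 in replicate 3, from 7 to between 0 and 138 for stage 65 over 61, from 4 to between 0 and 1398 for stage 61 over 56 and 58, from 1547 to between 967 and 2709 for the interaction, and in replicate 3 from 0 to as many as 142 and 1352 for the stages. Replicate numbers are shared by the tissues, and deviations of same-numbered libraries had correlations across 9461 genes of 0.40 (stage 61) and 0.24 (stage 65); with 2 replicates this cannot establish a pairing. The replicate block gave 272 genes for the tissues and 1064 for the interaction. Sparse rows are limited by depth.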

Other observations

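Ratios between rows of one library do not depend on its total; those given here were chosen after their values were seen, and carry no test. The ratio of row 36 to row 34, rows that stand 1 empty row apart, ran from 0.0479 to 0.926 over the 18 libraries. At stage 58 it was 0.0479 in coccyx and 0.102 in hypochord, and in replicate 2 of stage 61 it was 0.188 and 0.194. In the other 14 libraries it was 0.333 to 0.926. The tissues of a pair differed in it by 1.15-fold in the median pair and by up to 2.13-fold, at stage 58, so low values came in both tissues of the same pair. The tissue ratios of both rows stand in the report.

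Row 21 had 0.150 to 0.193 times the counts of its neighbour row 22 in the 4 libraries of stage 56. At stage 58 it had 0.235 times in coccyx and 0.169 times in hypochord. The ratio was 0.209 to 0.360 in the 6 libraries of stage 61 and 0.264 to 0.448 in the 6 of stage 65. Stage 56 did not overlap with stage 61 or 65, in either kind of table. Stages 61 and 65 overlapped in replicate 3 (0.292 and 0.360 against 0.350 and 0.415). In replicates 1 and 2 they did not, with 0.209 to 0.248 against 0.264 to 0.448. The coccyx value was the higher of its pair in 3 of 9 pairs.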
